A study of Drosophila melanogaster with 21 samples.

Results

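Drosophila S2 cells were profiled on microarrays at 96 and 120 hr after RNA interference, the middle of time courses that ran from 72 to 168 hr in these experiments. The arrays were chosen by their labels alone: those of cells transfected with interfering RNA against CoVa or against GFP at 96 and 120 hr in experiments 2 and 3. They are 8 of the 21 samples, 4 of CoVa RNAi cells and 4 of GFP controls, and each CoVa array has a GFP array of the same experiment and hour as its pair. S2 is a fly cell line from late embryos with the character of haemocytes, grown here in Schneider's medium. Both groups received their RNA by calcium phosphate transfection, so the controls carry the transfection and an interfering RNA as well, against a sequence that flies lack. All cells of a group come from this 1 line, and the RNA of a sample went onto 1 array, of the Affymetrix type Drosophila Genome 2. The 4 arrays of the same experiments at 72 hr serve to show what was added since the start. The study asked how nuclear transcription responds when electron transport is attenuated.

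CoVa encodes a subunit of cytochrome c oxidase. This enzyme, complex IV, is the last of the mitochondrial electron transport chain: it passes electrons to oxygen and pumps protons that drive the ATP synthase. When the chain slows, cells can make ATP by glycolysis and regenerate NAD by reducing pyruvate to lactate. The transcriptional answer of the nucleus to such a defect is called a retrograde response.

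Values are signal intensities on the linear scale of the authors, with 9.60 as the lowest. Array medians ranged from 67.5 to 91.6, a signal of 100 was reached by 42.7% to 48.3% of the probesets of an array, and the correlations among the arrays ran from 0.958 to 0.990. The experiments differed in heat shock genes: Hsp68, a heat shock protein gene, read 6725 and 6223 in GFP cells of experiment 2 at 96 and 120 hr and 243 and 265 in those of experiment 3. The CoVa array of experiment 2 at 120 hr stands apart from its own experiment, with 822 for Hsp68 after 6130 at 96 hr and 209 for Hsp27 after 2221. Counts are therefore also given without this pair, a choice made after seeing the data. Of 10 plasmatocyte markers, Hml, NimC1 and Sr-CI stayed under 100 on all 8 arrays, while the GATA factor srp read 1699 to 2920, and the summed level of the 10 was 4396 to 6932 in GFP and 3810 to 7122 in CoVa RNAi cells. The ratio of 3′ to 5′ signal of the eIF-4a control is a sign of RNA integrity. This ratio was 2.33 to 2.99 in GFP and 2.05 to 2.40 in CoVa RNAi cells, lower on the CoVa array of every pair. That of actin was 1.60 to 1.86 in GFP and 1.61 to 2.15 in CoVa RNAi cells, highest on the CoVa array of experiment 2 at 120 hr, and that of GAPDH overlapped (1.27 to 1.57 and 1.30 to 1.43). The part of RNA integrity in the results was not tested. In RNA of whole cultures, fewer cells of a kind and less RNA per cell cannot be told apart.

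The CoVa transcript (probeset 1639962_a_at) was lower in all 4 pairs. In the order used throughout, experiment 2 at 96 and 120 hr and then experiment 3 at 96 and 120 hr, it read 8924, 8855, 8426 and 7534 in GFP cells. The matched CoVa RNAi cells read 3710, 2944, 5839 and 4764. The groups did not overlap, and the decrease was 58.4% and 66.7% in experiment 2 but 30.7% and 36.8% in experiment 3. Mean signals were 8434 ± 640 for the GFP arrays and 4314 ± 1261 for the CoVa arrays (SD, n = 4). On log2(signal + 32), the scale of all log2 values here, the mean difference over the 4 pairs was -1.01 (SE 0.38) and did not pass in limma (adjusted p = 0.0943, with values between 0.0577 and 0.334 in 14 alternatives). At 72 hr the signal was already 60.3% and 24.8% below that of the controls in experiments 2 and 3, and neither the step since then (-0.14, SE 0.38) nor that from 96 to 120 hr (-0.22, SE 0.44) passed.

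Under this unequal knockdown, CoVa RNAi cells had a higher signal at 96 and 120 hr for 1547 of 9858 tested probesets (15.7%) and a lower one for 864 (8.76%) (limma on the pair differences, Benjamini-Hochberg adjusted p under 0.05). All 4 pairs had the called direction for 1501 of the 1547 and 814 of the 864, where 2506 (25.4%) and 1537 (15.6%) of all tested probesets had 4 pairs of 1 sign. The calls were made on these same 4 pairs, so their shared sign follows largely from the call and is only a description. Large differences were few: a difference of at least 2-fold, read from the log2 scale, was reached by 101 of the higher and 47 of the lower probesets, and 4-fold by 8 and 3. The share of higher among the called probesets was 64.2% as deposited, 49.8% after quantile normalization and 45.5% after scaling to a common median. Without the 120 hr pair of experiment 2 there were 955 higher and 491 lower, without experiment 2 altogether 441 and 164, and without experiment 3 1041 and 458. With the arrays unpaired, 540 and 159 passed. The 4 pairs come from only 2 experiments, and the 96 and 120 hr pairs of 1 experiment are not independent cultures.

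**Figure D1:**
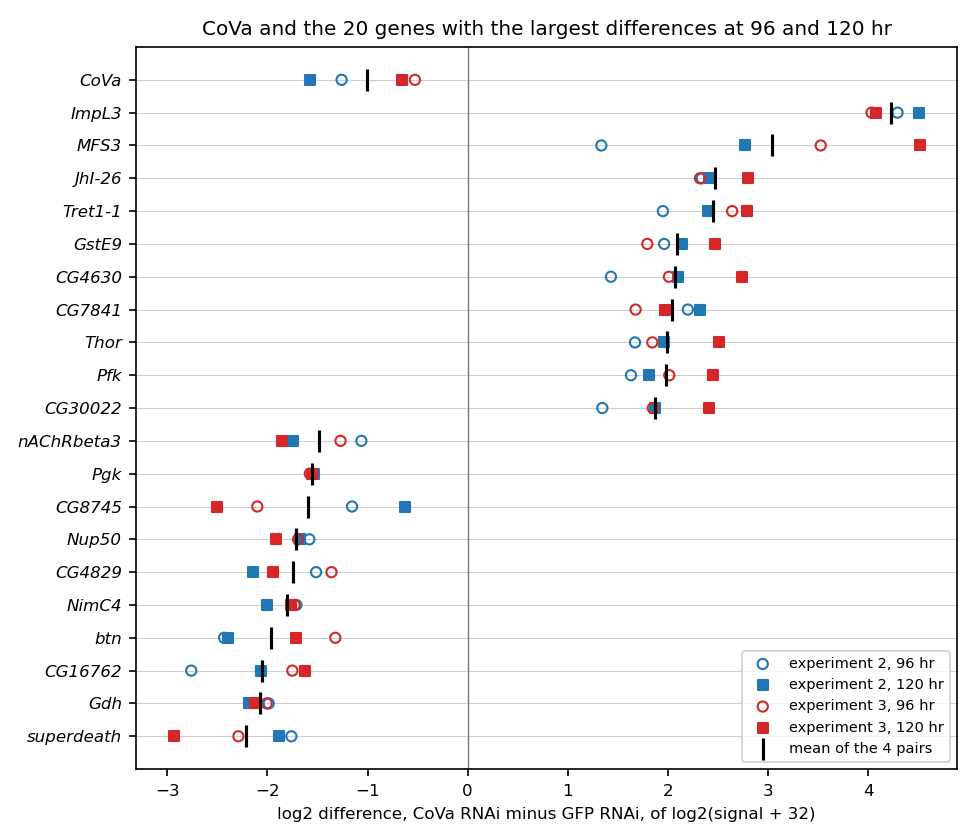
Log2 difference (CoVa RNAi minus GFP RNAi, of log2(signal + 32)) on the x axis for CoVa and for the 10 higher and 10 lower genes with the largest differences that passed and had 1 sign in all pairs. Open circles are 96 hr and filled squares 120 hr, blue is experiment 2 and red experiment 3, and the black bar is the mean of the 4 pairs. ImpL3 stands furthest to the right at 4.23 and superdeath furthest to the left at -2.22, and the pairs of Pgk lie almost on each other.

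Of the 10 higher genes, 3 act in sugar use. ImpL3 (1635227_at, a name taken from the study), the fly lactate dehydrogenase, read 104, 93.7, 247 and 282 in GFP cells and 2626, 2833, 4536 and 5271 in CoVa RNAi cells. Every CoVa array was thus far above every GFP array, a 21.0-fold ratio of the means and a log2 difference of 4.23 (SE 0.48, adjusted p = 0.000911, limma). Tret1-1 (1627582_a_at), a trehalose transporter, went from 83.8, 90.7, 164 and 169 in GFP to 415, 617, 1191 and 1363 in CoVa RNAi cells. Its groups did not overlap either, at 7.07-fold (log2 2.45, SE 0.14, adjusted p = 8.68e-05). Pfk (1634739_a_at), phosphofructokinase, which commits sugar to glycolysis, read 226, 248, 246 and 254.6 in GFP and 769, 949, 1093 and 1533 in CoVa RNAi cells. Here the controls were nearly constant and the difference was 4.45-fold (log2 1.98, SE 0.13, adjusted p = 0.000116).

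Other genes with large differences serve transport, detoxification and growth control. JhI-26 (1632802_at), named for its induction by juvenile hormone, read 495, 521, 345 and 301 in GFP and 2632, 2917, 1851 and 2280 in CoVa RNAi cells, 5.82-fold apart (log2 2.47, adjusted p = 6.27e-05). The array annotation gives 2 probesets to GstE9, a glutathione transferase, but the study names the one of higher signal (1633238_at) GstE8, so the gene it measures is uncertain. It read 336, 351, 408 and 338 in GFP and 1402, 1652, 1496 and 2018 in CoVa RNAi cells, 4.58-fold. The other (1628657_at) had all GFP arrays under 100 and CoVa arrays between 717 and 2413, at least 14.2-fold with the control mean set to 100, which is the bound used wherever a group mean lies below that level. Thor (1635900_at, named by the study), the fly 4E-BP, which restrains cap-dependent translation, read 818, 525, 263 and 306 in GFP and 2674, 2131, 1029 and 1892 in CoVa RNAi cells. That is 4.04-fold (log2 2.00, SE 0.10, adjusted p = 6.27e-05), with no overlap. MFS3, a transporter of the major facilitator superfamily, was the 1 gene of the 10 higher whose groups overlapped: it read 15.1, 30.0, 93.6 and 63.3 in GFP and 86.9, 392, 1416 and 2146 in CoVa RNAi cells. Its difference was at least 10.1-fold (log2 3.04, SE 0.41, adjusted p = 0.00212) and did not pass without the pairing. CG4630 (at least 4.27-fold), CG7841 (4.39-fold) and CG30022 (3.96-fold) complete the 10.

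Among the lower genes, 3 were at their reduced level with little spread. Gdh (1640835_a_at), glutamate dehydrogenase, which links glutamate to the TCA cycle, read 2870, 2852, 2860 and 3151 in GFP and 700, 602, 688 and 697 in CoVa RNAi cells. The groups were far apart and tight, 4.37-fold (log2 -2.08, SE 0.11, adjusted p = 6.27e-05). Nup50 (1630141_at), a nucleoporin, read 1284, 1209, 1358 and 1324 in GFP and 408, 358, 398 and 328 in CoVa RNAi cells, 3.47-fold. Pgk (1639766_at), phosphoglycerate kinase, an ATP-yielding step of glycolysis, read 3150, 2946, 3441 and 2939 in GFP and 1051, 999, 1133 and 978 in CoVa RNAi cells. At 3.00-fold (log2 -1.55, SE 0.08, adjusted p = 6.27e-05) it ran opposite to the other glycolytic genes.

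The other lower genes follow. NimC4 (1637366_at), a phagocytic receptor for apoptotic cells, read 741, 667, 479 and 495 in GFP and 204, 142, 122 and 123 in CoVa RNAi cells, 4.03-fold lower and without overlap. nAChRbeta3, a nicotinic acetylcholine receptor subunit, read 1072, 951, 979 and 999 in GFP and 497, 261, 387 and 254 in CoVa RNAi cells. In both experiments its 120 hr value was the lower one. The homeobox gene btn was at least 4.22-fold lower, superdeath at least 4.55-fold, CG16762 at least 1.82-fold and CG4829 3.74-fold. CG8745 was 2.47-fold lower with overlapping groups, since it read 801, 677, 311 and 293 in GFP and 342, 429, 47.9 and 25.5 in CoVa RNAi cells, and it did not pass without the pairing or on the 4 pairs alone.

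Gene groups were then counted with 1 probeset per annotated gene that passed the signal filter, here called measured, against 7399 genes of which 17.4% were higher and 9.03% lower, with a median log2 difference of 0.05. In sugar metabolism, all 9 measured glycolytic genes of 15 listed passed, 8 higher and 1, Pgk, lower, with a list median of 0.49. Tpi, triosephosphate isomerase, read 2911, 2757, 2847 and 2691 in GFP and 5040, 5048, 5510 and 5613 in CoVa RNAi cells (log2 0.91, SE 0.07). The others ranged from Pgi at 0.72 and Hex-A, a hexokinase, at 0.62 down to Gapdh1 at 0.24. ImpL3 carries no annotated probeset and is not in this count. Of 9 measured genes of glycogen and trehalose metabolism (10 listed) 6 were higher and none lower, with a median of 0.90. Tret1-2 (log2 0.91), among the higher, read 45.2 to 101 in GFP and 113 to 239 in CoVa RNAi cells. It needed CoVa RNAi arrays to pass the signal filter, which favours counts of higher genes. Glyp, glycogen phosphorylase, read 297, 295, 245 and 253 in GFP and 524, 700, 606 and 884 in CoVa RNAi cells (log2 1.20, SE 0.13). Genes of glycogen synthesis were higher too, with 0.90 for the branching enzyme AGBE and 0.63 for the synthase Glys, while trehalase Treh (0.36, adjusted p = 0.186) did not pass. The glycolytic list held 6 higher without the 120 hr pair of experiment 2, 6 without experiment 2, 4 without experiment 3 and 5 without the pairing, with 1 lower each time. Gapdh1 lost its call in 7 of 14 alternatives, a common median among them, and Hex-A in 4. The glycogen list held 6 or 7 higher and 0 lower in these settings.

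A list of TCA cycle and related enzymes had 13 measured genes (17 listed), 5 higher and none lower, with a median of 0.17. It held 3 higher without that pair and 1 without experiment 2. The largest were Idh (0.56), the NADP-dependent isocitrate dehydrogenase, ScsbetaG (0.33), a succinyl-CoA synthetase subunit, and Mdh1 (0.32), which encodes the cytosolic malate dehydrogenase. Idh and Mdh1 are thus not the forms that act in the cycle itself, and the count is not one of cycle enzymes alone. Pepck1, the phosphoenolpyruvate carboxykinase of gluconeogenesis, read 248, 146, 189 and 155 in GFP and 451, 292, 343 and 458 in CoVa RNAi cells, a log2 difference of 0.95 (SE 0.09, adjusted p = 0.000544).

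Stress and translation genes formed the next groups. Of 11 measured genes (15 listed) of the integrated stress response, in which kinases that sense stress slow translation and raise the factor ATF4, 8 were higher and 1 lower, with a median of 0.45. Irbp18, a bZIP partner of this pathway, read 943, 736, 718 and 791 in GFP and 1771, 1730, 1314 and 1565 in CoVa RNAi cells (log2 0.97, SE 0.06, adjusted p = 0.000116). Tspo, a protein of the outer mitochondrial membrane, differed by 0.82, the kinases PEK and Gcn2 by 0.52 and 0.32, and crc, the fly ATF4, by 0.40. The largest were CG15784 (1.18) and CG9691 (1.16), and the 1 lower gene was Sesn, a sestrin, at -0.51. The groups of CG9691 overlapped, with 591 to 1452 in GFP and 1131 to 3817 in CoVa RNAi cells, and it did not pass without the pairing. The cytosolic tRNA synthetases, which charge tRNAs with amino acids, were higher in 14 of 16 cases, all listed genes being measured, and lower in none, with a median of 0.43. TrpRS read 1739, 1599, 1724 and 1540 in GFP and 3297, 3239, 3285 and 3218 in CoVa RNAi cells, values that barely varied between experiments (log2 0.97, SE 0.05, adjusted p = 6.27e-05). ValRS, GlyRS and LeuRS followed with 0.84, 0.79 and 0.68, while ArgRS (-0.18, adjusted p = 0.0932) and GlnRS (0.05, adjusted p = 0.498) did not pass. The synthetase count was 10 without the 120 hr pair of experiment 2, 4 without experiment 2 and 10 without experiment 3.

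Of 27 measured glutathione transferases (34 listed) 13 were higher and 3 lower (median 0.34), and of 32 measured cytochrome P450 genes (80 listed) 11 were higher and 4 lower (median 0.16). GstD5 read 331, 350, 158 and 139 in GFP and 600.1, 605, 621 and 665 in CoVa RNAi cells. Its CoVa values were alike while the controls differed between experiments (log2 1.34, SE 0.26), and it did not pass on the 4 pairs alone (adjusted p = 0.0591). GstS1, the lower transferase with the largest difference, read 156.2, 130, 172 and 132 in GFP and 67.0, 40.8, 82.6 and 46.9 in CoVa RNAi cells (log2 -0.99, SE 0.09, adjusted p = 0.000309). Cyp4e2 read 320, 233, 332 and 245 in GFP and 890, 1014, 971 and 1100 in CoVa RNAi cells, so that the controls were lower and the CoVa RNAi cells higher at 120 hr in both experiments (log2 1.72, SE 0.13, adjusted p = 0.000209). Cyp6a23 read 155.5, 150, 150 and 118 in GFP and 316, 628, 542 and 776 in CoVa RNAi cells (log2 1.71, SE 0.14). The lower P450 genes were Cyp310a1 (-1.07), Cyp6a8 (-0.78), Cyp12a4 (-0.49) and Cyp4d20 (-0.43), which lost their calls in 2, 3, 6 and 7 of 14 alternatives. Without the pairing 7 P450 genes were higher and 0 lower, and without experiment 2 only 6 transferases were higher. Members of these families are similar in sequence, and cross-hybridization between them was not tested. In these and the other lists, a gene low in the controls could also pass the signal filter through CoVa RNAi arrays. That favours counts of higher genes. Cyp6a22, for example, read 9.60 to 83.2 in GFP and 54.2 to 256 in CoVa RNAi cells. The extent of this was not tested.

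Of 20 measured genes of mitochondrial protein import and quality control (22 listed) 10 were higher and none lower, with a median of 0.18. Alr (1630885_at), the sulfhydryl oxidase of the intermembrane space, read 410, 366, 454 and 391 in GFP and 1115, 1198, 1421 and 1385 in CoVa RNAi cells, 3.16-fold (log2 1.58, SE 0.08, adjusted p = 6.27e-05). The protease Lon (0.68), the fusion GTPase Opa1 (0.63) and the prohibitin Phb1 (0.60) were next. Complex I had 2 higher and 2 lower of 27 measured genes (32 listed) and complexes III, IV and V 1 and 3 of 30 (40 listed), with medians of -0.01 and -0.02. ATPsyndelta, a subunit of the ATP synthase, was the 1 higher of the latter and read 2897, 3202, 3205 and 3332 in GFP and 5800, 4958, 5218 and 4718 in CoVa RNAi cells (log2 0.70, SE 0.09). ND-B14 was the lowest of complex I at -0.60 (SE 0.05). The mitochondrial ribosome had 7 higher and 4 lower of 69 genes, all those listed. Without the 120 hr pair of experiment 2, complex I had 1 higher and 2 lower, complexes III to V had 1 and 0, and the ribosome 1 and 1.

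Genes of DNA replication and the cell cycle had no higher and 8 lower of 23 measured (33 listed), with a median of -0.18. Mcm2, a subunit of the replicative helicase, read 1925, 2173, 2219 and 2182 in GFP and 1671, 1455, 1992 and 1680 in CoVa RNAi cells, the lower value at 120 hr in both experiments (log2 -0.32, SE 0.06, adjusted p = 0.0102). Cdk2 (-0.33), the origin recognition subunit Orc5 (-0.28) and the cyclin CycB3 (-0.27) were of similar size. These are small differences: the count of 8 was 2 without the 120 hr pair of experiment 2, 1 without the pairing, and 0 without either experiment. Integrin and matrix genes had 3 higher and 9 lower of 17 measured (18 listed), with a median of -0.36, and 2 and 7 without that pair. The integrin alpha subunit gene if read 877, 1084, 697 and 933 in GFP and 453, 393, 453 and 380 in CoVa RNAi cells (log2 -1.03, SE 0.10, adjusted p = 0.00051). Col4a1, a collagen IV chain, read 494, 333, 408 and 409 in GFP and 244, 133, 286 and 201 in CoVa RNAi cells (log2 -0.87). The other collagen IV chain, vkg, was not lower, with 474 to 643 in GFP and 531 to 725 in CoVa RNAi cells. Lower too were fat-spondin and Ama, at -1.41 and -1.22, but neither passed without the pairing, and Ama did not pass without experiment 2. ItgaPS4, another alpha subunit, ran the other way, from 22.4, 12.1, 26.2 and 35.8 in GFP to 49.3, 119, 249 and 400.5 in CoVa RNAi cells, at least 2.05-fold. It is also a lamellocyte marker, a list in which PPO3 was higher (0.73, SE 0.07) and the defining marker atilla stayed under 100 on all arrays. The summed level of the 4 lamellocyte markers was 3823 to 4924 in GFP and 3973 to 5476 in CoVa RNAi cells, but it is nearly all mys (3519 to 4682 and 3505 to 4640) and says little of the others. The part of such cells in the results was not tested.

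**Figure D2:**
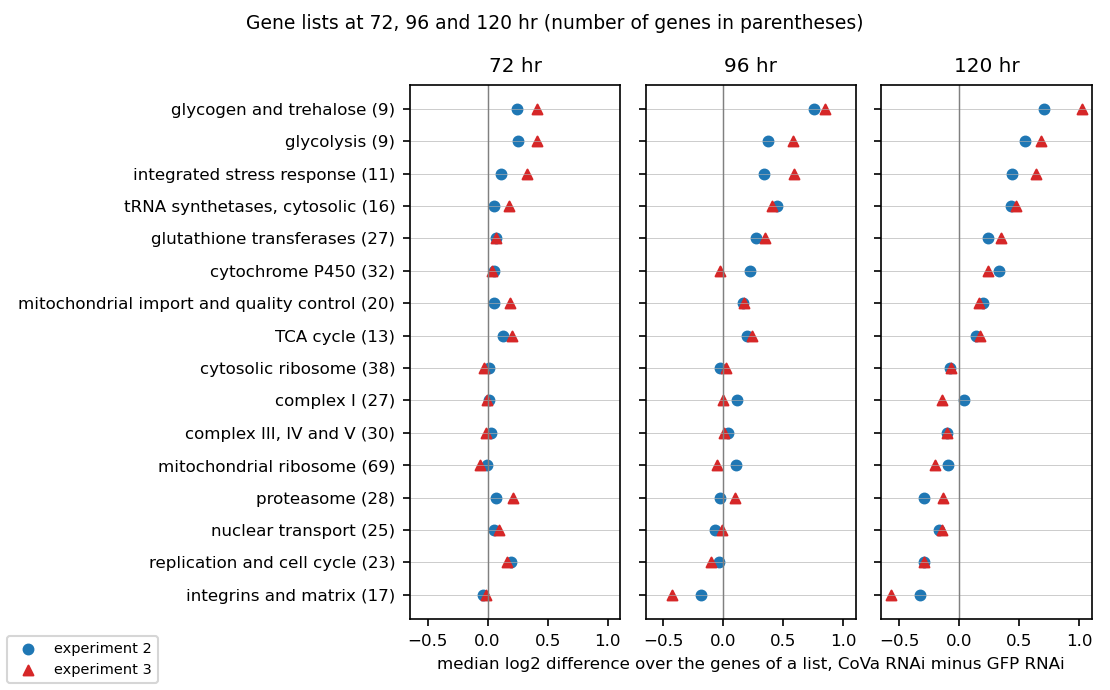
Median log2 difference (CoVa RNAi minus GFP RNAi, x axis) over the genes of 16 lists at 72, 96 and 120 hr, with experiment 2 as blue circles and experiment 3 as red triangles, and the number of measured genes in parentheses. The glycogen and trehalose list moves from 0.25 and 0.41 at 72 hr to 0.70 and 1.03 at 120 hr, and the replication list from 0.19 and 0.16 to -0.29 in both experiments.

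What had been added since 72 hr was read within each experiment, as the mean of the 96 and 120 hr differences minus the 72 hr difference. The called probesets were chosen on their differences at 96 and 120 hr, so smaller values at the other times follow in part from that choice, and they are given as a description. Of the 1547 higher probesets, 1211 (78.3%) had a positive difference at 72 hr in experiment 2 and 1381 (89.3%) in experiment 3, where 47.2% and 61.4% of all tested probesets did so. Of the 864 lower, 699 (80.9%) and 653 (75.6%) had a negative one. Their median log2 difference went from 0.11 at 72 hr to 0.36 at 96 hr and 0.40 at 120 hr in experiment 2, and from 0.22 to 0.40 and 0.44 in experiment 3. The 864 lower probesets went from -0.13 to -0.27 and -0.39 in experiment 2 and from -0.12 to -0.26 and -0.46 in experiment 3. At 168 hr the medians of both sets were larger still, 0.55 and 0.53 for the higher and -0.59 and -0.58 for the lower.

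The step itself passed for 2 of 9858 probesets (0.0203%), both of 1 gene, CG30022, and for none in the lower direction. At an unadjusted p under 0.05 there were 820 with a positive and 609 with a negative step. CG30022 (1628558_at) read 414 and 391 in GFP cells at 72 hr and 486 and 677 in CoVa RNAi cells of experiments 2 and 3. At 96 and 120 hr it read 457, 460, 425 and 436 in GFP and 1210, 1766, 1614 and 2448 in CoVa RNAi cells. The controls hardly moved, the CoVa RNAi values grew at each time, and the step was 1.39 and 1.38 in experiments 2 and 3. The fitted step was 1.39 (SE 0.09, adjusted p = 0.0450, limma) and that of its second probeset, 1632652_s_at, 1.43 (adjusted p = 0.0464). It kept its size but not its call in 6 of 10 alternatives (adjusted p up to 0.223), among them the fits without the 120 hr pair of experiment 2 and without the experiment as a block.

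A number of other genes missed the threshold by little, and their steps are given as values, chosen after these were seen. Their adjusted p-values ran from 0.0556 to 0.0597. They were CG4630 (1.89), c(2)M (1.57), a synaptonemal complex gene, Cyp6a23 (1.54), MME1 (1.44), a mitochondrial magnesium transporter, Thor (1.40), Tpc1 (0.98), the mitochondrial thiamine pyrophosphate carrier, the activin-like ligand daw (0.97) and Alr (0.87). The rule for the lower direction gave His2A (-1.23, adjusted p = 0.0556), CG4829 (-1.06, adjusted p = 0.0748) and the exonuclease WRNexo (-0.64, adjusted p = 0.0981). Of the higher genes, CG4630 and c(2)M needed CoVa RNAi arrays to pass the signal filter. ImpL3 had a larger step of 2.24 with a larger error (SE 0.40, adjusted p = 0.135). It read 34.6 and 373 in GFP and 205 and 1762 in CoVa RNAi cells at 72 hr. MFS3 (2.28, adjusted p = 0.216), JhI-26 (1.51, 0.0702) and Tret1-1 (1.46, 0.127) also moved at least as much as CG30022 without passing in limma. So did the GstE9 probesets 1628657_at (2.68, 0.0702) and 1633238_at (1.41, 0.106). In contrast, Pgk was already at 755 and 755 in CoVa RNAi cells at 72 hr against 2715 and 2957 in GFP, and Nup50 at 559 and 345 against 1463 and 1352, with steps of 0.31 (adjusted p = 0.311) and -0.11 (adjusted p = 0.727).

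**Figure D3:**
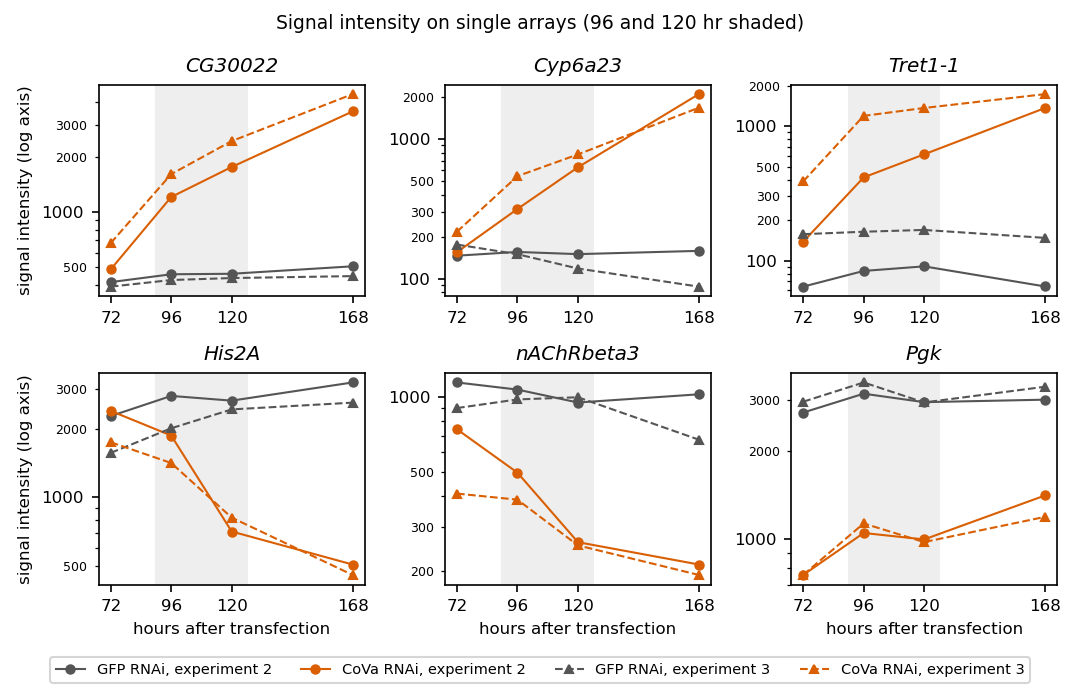
Signal intensity (log axis) against hours after transfection for 6 genes, GFP RNAi in grey and CoVa RNAi in orange, experiment 2 with circles and solid lines and experiment 3 with triangles and dashed lines, 1 array per point and 96 and 120 hr shaded. CG30022 and Cyp6a23 part from the controls between 72 and 120 hr, His2A changes sides between 72 and 120 hr, and Pgk is at its low level at 72 hr.

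Among the groups, the tRNA synthetases moved between 72 and 96 hr. Their median difference was 0.05 and 0.18 at 72 hr in experiments 2 and 3, 0.44 and 0.41 at 96 hr and 0.43 and 0.47 at 120 hr, and 12 of 16 moved up in both experiments, beside 34.0% of all annotated genes. TrpRS, for example, read 2055 and 2280 in CoVa RNAi cells at 72 hr and 1656 and 1719 in GFP. Cytochrome P450 genes moved up in both experiments in 17 of 32 cases and glutathione transferases in 16 of 27, counts that the signal filter may raise. In the other direction, 21 of 23 replication and cell cycle genes and 26 of 28 proteasome genes moved down in both experiments, beside 31.8% of all genes, and no member of these 2 lists moved up in both. The proteasome list started above the controls: its median fell from 0.07 through -0.03 to -0.30 over the 3 times in experiment 2. In experiment 3 it fell from 0.21 through 0.10 to -0.13. Over the 4 later pairs its median was thus only -0.09, with 2 genes higher, 2 lower and 24 not passing. Leaving out the 120 hr pair of experiment 2 gave 0 calls in either direction. The replication list had been above 0 at 72 hr, with medians of 0.19 and 0.16, passed through -0.03 and -0.11 at 96 hr and stood at -0.29 in both experiments at 120 hr. Mcm2 read 1654 and 1868 in GFP and 1987 and 2075 in CoVa RNAi cells at 72 hr, so that the pairs changed sides. No single step of these lists passed over all probesets.

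Between 96 and 120 hr no probeset passed in either direction (0%), with a smallest adjusted p of 0.61, and 189 positive and 278 negative steps had an unadjusted p under 0.05. The Pearson correlation between the steps of experiments 2 and 3 was -0.03 over 9858 probesets, against 0.40 for the steps from 72 hr, where probesets of 1 array are not independent and the steps of 1 experiment share its arrays. Among the called probesets 632 of the 1547 higher (40.9%) moved further up in both experiments and 529 of the 864 lower (61.2%) further down, where 20.6% and 32.7% of all tested probesets did so. These sets were chosen on the same arrays at 96 and 120 hr.

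**Figure D4:**
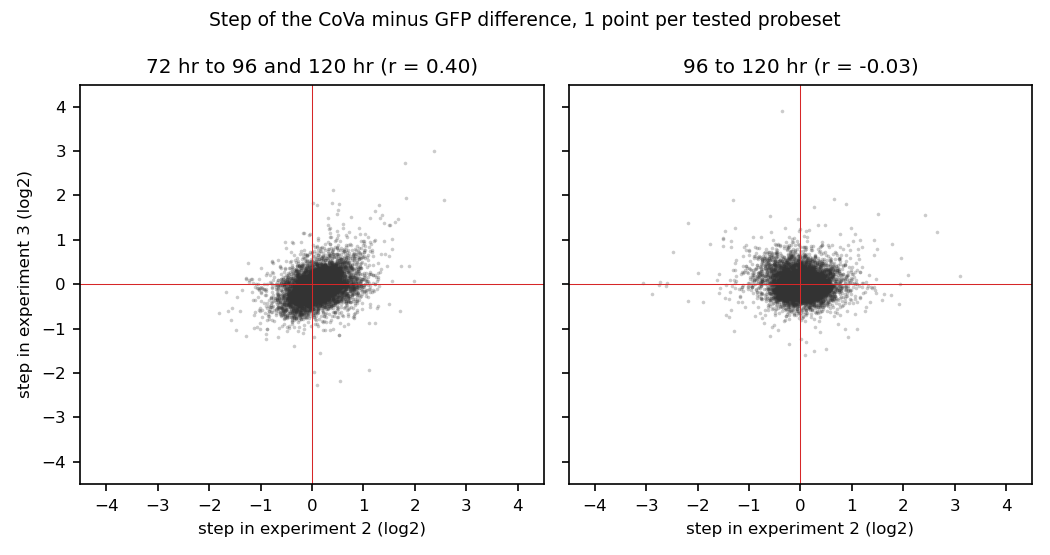
Step of the CoVa minus GFP log2 difference in experiment 2 (x axis) against that in experiment 3 (y axis), 1 point for each of 9858 tested probesets, from 72 hr to the mean of 96 and 120 hr on the left and from 96 to 120 hr on the right. The left cloud is tilted (r = 0.40) and the right one is not (r = -0.03).

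The smallest p of this step belonged to His2A (1625925_at, named by the study), a core histone. It read 2787, 2657, 2011 and 2432 in GFP and 1868, 710, 1416 and 816 in CoVa RNAi cells. The CoVa RNAi cells were the lower at 120 hr in both experiments, whereas the controls were slightly lower in 1 and higher in the other, and the step was -1.17 (SE 0.11, unadjusted p = 6.19e-05, adjusted p = 0.61). At 72 hr the groups were level, with 2275 and 1569 in GFP and 2396 and 1746 in CoVa RNAi cells. The other steps of the rule, all with an adjusted p of 0.901, were c(2)M (0.96), CG10339 (0.68), CG30022 (0.54), CG9497 (-1.06) and trbl, a pseudokinase gene, at -0.59. c(2)M read 47.8, 29.5, 52.9 and 35.2 in GFP and 125, 231, 141 and 208 in CoVa RNAi cells. It passed the signal filter through CoVa RNAi arrays, where it was high. The step of CG30022 was 0.53 in experiment 2 and 0.56 in experiment 3. CG10339 read 150, 115, 411 and 303 in GFP and 193, 266, 382 and 462 in CoVa RNAi cells. At 120 hr its GFP values were thus the lower and its CoVa RNAi values the higher in both experiments. CG9497 read 39.6, 69.8, 124 and 147 in GFP and 44.6, 9.60, 97.3 and 56.7 in CoVa RNAi cells. Both of its group means lay under 100, and 9.60 is the lowest value of the data. Of the 20 genes with the largest differences at 96 and 120 hr, MFS3 had the largest step, 1.21 (SE 0.71, adjusted p = 0.901), and ImpL3, Gdh, Nup50 and Pgk had steps of 0.13, -0.16, -0.15 and 0.02.

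By groups, cytochrome P450 genes moved up from 96 to 120 hr in both experiments in 18 of 32 cases and down in none, beside 20.1% and 34.7% of all annotated genes. Their median went from 0.22 to 0.33 in experiment 2 and from -0.03 to 0.24 in experiment 3. Since P450 genes low in the controls could pass the signal filter through CoVa RNAi arrays, these upward counts may be raised by that choice. Replication and cell cycle genes moved down in both in 19 of 23 cases, proteasome genes in 26 of 28, mitochondrial ribosomal proteins in 57 of 69, complex I genes in 22 of 27 and cytosolic ribosomal proteins in 29 of 38. The last of these had a median step of -0.07 as deposited and 0.01 after quantile normalization, whereas the medians of the other 4 lists stayed below 0 under both scalings. Glycolytic genes moved up in both in 6 of 9 cases and the tRNA synthetases in 4 of 16, with median steps of 0.08 and 0.04.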

How the data were processed

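The deposited values are intensities on a linear scale, 1 per probeset. Per the study's methods, the authors scanned the arrays in the GeneChip Operating System and normalized in dChip, with the array of median intensity as the baseline. The submitters' processing notes name MAS5, and the values do not settle which of the programs gave the deposited signal. Of 18952 probesets, 183 controls were left out. After adding 32, values were put on a log2 scale, and probesets were tested (9858) where 3 or more of the 20 GFP or CoVa arrays read at least 100. The 10 pairs of a CoVa and a GFP array of 1 experiment and time were differenced and fitted by the limma package, version 3.58.1, under R 4.3.3 (statmod 1.5.0), with 1 mean per time, 5 residual degrees of freedom and eBayes, and the mean of 96 and 120 hr was tested. The steps from 72 hr and from 96 to 120 hr were fitted on the 8 pairs of experiments 2 and 3 with a term for the experiment (3 residual degrees of freedom). Tests were 2-sided, with Benjamini-Hochberg adjustment over all tested probesets at 0.05. The pairing comes from the labels, which give each array its experiment and hour. Deviations from the group means correlated within pairs by 0.956, 0.774 and 0.785 at 72, 96 and 120 hr.

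A fold is the ratio of mean signals. The array annotation gave 13646 probesets 1 gene, and 16 others took their names from the study. For several probesets of a gene, the one of the highest mean was used. Named are CoVa, the 10 higher and 10 lower genes with the largest difference past the threshold and 1 sign in all pairs, those past the threshold in each step or else the 3 of smallest p per direction, and up to 4 members of each list. Members and lists were chosen with earlier results of these data known. List members beyond the 4, and the near misses, were chosen after their values were seen. Alternatives changed the scaling, the added value, the filter, the eBayes settings, the block and the arrays. The methods' t-test is given as counts and is not among the alternatives counted for single genes. The fits were tested on simulated data. Arrays of experiment 1 and of 168 hr enter the signal filter, the choice of 1 probeset per gene and the spread. The first pair of experiment 1 is alone at its time, however, and adds nothing to the spread. Arrays of 168 hr also enter the medians given for that time and the plot of signal over time. The untransfected sample, genes without a named probeset, sequences and promoter motifs were not analysed here. Python 3.11.15 with numpy 2.4.6, pandas 2.3.3, scipy 1.17.1 and matplotlib 3.10.9 was used.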

Additional observations from a re-analysis of the deposited data

Results flagged for a closer look

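The difference between CoVa RNAi and GFP cells itself differed between 72 hr and the mean of 96 and 120 hr for 1 gene, CG30022, by a test of that difference in limma. The step was 1.39 for probeset 1628558_at (adjusted p = 0.0450) and 1.43 for 1632652_s_at (adjusted p = 0.0464), with both experiments in the same direction. By Dixon's criterion, 1 pair stood apart from the other 3 for 4 of the 96 named probesets, where chance marks about 1 in 20. For Hsp68 the log2 difference was -2.87 in the 120 hr pair of experiment 2 and -0.13 to 0.20 in the others. For Pepck1 it was 1.39 in the 120 hr pair of experiment 3 and 0.76 to 0.86 in the others. In the 96 hr pair of experiment 2 it was 0.02 for Orc5 and 0.16 for sima, against -0.40 to -0.36 and 0.60 to 0.64.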

How the results depend on the processing

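The count at 96 and 120 hr, 1547 higher and 864 lower, was 986 and 462 with no filter, 540 and 159 with no replicate block (arrays unpaired), 681 and 280 on the 4 pairs alone, and 955 and 491 without the 120 hr pair of experiment 2. Leaving out 1 experiment gave 441 to 1041 higher and 164 to 458 lower. Scaling to a common median gave 1386 lower. The methods' t-test gave 522 lower unadjusted, and 242 higher and 48 lower after Benjamini-Hochberg adjustment. The 2 positive steps since 72 hr became 0 with 8 added, with no filter, with a trend and robust prior, with no replicate block, without the 168 hr pairs and without the 120 hr pair of experiment 2, and 47 with 100 added and 19 with a stricter filter, where 5 and 2 negative steps passed. The step from 96 to 120 hr gave 0 in every alternative. Of 96 named probesets 88 passed at 96 and 120 hr, and 52 of them in every alternative fitted by limma. The methods' t-test is not among these. Without the pairing 26 were lost, without experiment 2 or 3 there were 19 and 14, and with quantile normalization 0. Some that did not pass on all arrays changed sign. GlnRS became -0.008 and -0.015 with quantile normalization and a common median, and without the 120 hr pair of experiment 2 Hsp68 and Hsp27 became 0.107 and 0.634. Leaving out 1 experiment gave -1.503 (which passed) to 0.19 for Hsp68, -1.733 to 0.962 for Hsp27, -0.122 to 0.056 for trbl and -0.076 to 0.797 (which passed) for Treh. Leaving out an experiment could not be run for the steps, which then have no residual degrees of freedom. The cause of these shifts was not tested, except that fewer samples enter where arrays are left out.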

Other observations

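Of 13 measured antioxidant genes (20 listed) 6 were higher and 2 lower, with a median of 0.16. The autophagy receptor gene ref(2)P read 2542, 2613, 1833 and 2033 in GFP and 4026, 3873, 3838 and 4277 in CoVa RNAi cells (log2 0.83, SE 0.15, adjusted p = 0.00651, limma). Keap1, which restrains the oxidative stress factor cnc, had a difference of 0.58 and cnc itself 0.98, with overlapping groups. Of 10 measured genes of p53 and cell death (17 listed) 4 were higher and 2 lower. Ku80, a protein of DNA end joining, read 381, 307, 421 and 307 in GFP and 748, 648, 722 and 549 in CoVa RNAi cells (log2 0.86, SE 0.07), p53 differed by 0.49, and the lower genes were the kinase tefu (-0.46) and the TNF ligand egr (-0.45). The calls of tefu and egr were lost in 6 and 5 of 14 alternatives. For egr the study lists another probeset as lower, whose values are not given here. The p53 and cell death list held 3 higher and 1 lower without the 120 hr pair of experiment 2 and 1 and 0 without experiment 2.

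Of 6 measured genes of the hypoxia pathway (11 listed) 2 were higher, sima (0.51), the fly HIF-alpha, and Hph (0.34), a prolyl hydroxylase that marks it for degradation, both with overlapping groups, and none without the 120 hr pair of experiment 2. Genes of cofactor synthesis were picked after their values were seen. Naprt, which makes an NAD precursor from nicotinate, read 599.6, 617, 643 and 649 in GFP and 1861, 2249, 1993 and 2491 in CoVa RNAi cells (log2 1.72, SE 0.08, adjusted p = 6.27e-05). FeCH, the ferrochelatase that completes heme, read 1009, 967, 1148 and 1028 in GFP and 2176, 2481, 2349 and 2674 in CoVa RNAi cells (log2 1.20, SE 0.06, adjusted p = 6.27e-05). In both genes the controls were nearly constant and the CoVa RNAi values were the higher at 120 hr in each experiment.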
